A study of Mus musculus with 2 samples.

Results

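The 9 genes described here encode the signalling chains of the T cell receptor and the proteins that act on them. They are Cd3d, Cd3e, Cd3g and Cd247, which encode the chains of the CD3 complex, the kinase genes Lck and Zap70, the adaptor gene Lat, and the surface receptor genes Cd28 and Cd5. They were chosen by gene name from a table of 54532 genes, and all 9 names were found. Their expression was compared between macrophages of the PDR group and of the SKYD group.

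Macrophages were sorted from the aorta of male ApoE-/- mice of the C57BL/6J strain with antibodies to F4/80 and CD11b. The mice were 6 weeks old at the start, and the cells of 5 mice were pooled for each library. The Phlegm-Dampness Retention (PDR) group received 4 weeks of high-fat diet and 0 weeks of propylthiouracil. The Spleen and Kidney Yang Deficiency (SKYD) group received propylthiouracil, which lowers thyroid hormone, by gavage for 4 weeks at 10 mg/kg per day, followed by 2 weeks of high-fat diet. Syndrome, drug, time on the diet and age at sampling cannot be told apart, and no wild-type library was analysed here. Each group had 1 library, so no difference has a replicate check and no p-value was computed. On genes, the PDR library held 23086889 reads and the SKYD library 25427863.

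In T cells, the antigen receptor has no signalling domain of its own and depends on the CD3 chains, whose cytoplasmic tails carry immunoreceptor tyrosine-based activation motifs (ITAMs). Lck phosphorylates the ITAM tyrosines, Zap70 docks on them and phosphorylates Lat, and Lat then gathers the enzymes that raise calcium and activate Ras. Cd28 adds co-stimulation and Cd5 dampens the signal. Macrophages do not normally use this receptor, whereas NK cells share Cd247, Lck, Zap70 and Lat with T cells, and some B cells carry Cd5.

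The sequences to which Zap70 docks are given first, because the CD3 genes and Zap70 differed by unequal folds in these libraries. The ITAM was searched in the coding sequences of GENCODE M21 as codons for tyrosine, any 2 residues and leucine or isoleucine, repeated after 6 to 8 residues. The principal transcripts of Cd3d, Cd3e and Cd3g each held 1 ITAM, and that of Cd247 held 3. A shorter coding transcript of Cd3g held 0. In 5 other coding transcripts of Cd247 the search found 2, and values per gene do not separate the transcripts. Each stretch below spans 2 exons of GRCm38, is written in the direction of the gene, and has the codons of the motif residues in capitals.
Cd3d ITAM (chr9:44986095-44986311, + strand): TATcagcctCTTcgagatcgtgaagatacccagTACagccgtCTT
Cd3g ITAM (chr9:44970735-44971268, - strand): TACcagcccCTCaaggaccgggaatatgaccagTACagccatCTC
Cd3e ITAM (chr9:44999549-45000440, - strand): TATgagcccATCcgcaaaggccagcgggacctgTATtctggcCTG
Cd247 ITAM 1 (chr1:165856451-165857454, + strand): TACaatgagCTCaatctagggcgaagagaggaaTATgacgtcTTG
Cd247 ITAM 2 (chr1:165858473-165859260, + strand): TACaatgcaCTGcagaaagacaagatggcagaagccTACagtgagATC
Cd247 ITAM 3 (chr1:165859819-165861042, + strand): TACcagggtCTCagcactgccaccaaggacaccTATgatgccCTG

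All 9 genes had a higher level in SKYD than in PDR. Levels are given as FPKM, the fragments of a gene scaled by its length and by the total of the library. On the log2(FPKM + 1) scale, 8 of the 9 exceeded a 2-fold difference toward SKYD, as did 6.91% of the 10399 genes whose mean FPKM was 1 or more, which are called expressed or tested here. Toward PDR, 0 of the 9 exceeded 2-fold, against 7.38% of the tested genes. The gene within 2-fold was Zap70. The median difference in log2(FPKM + 1), PDR minus SKYD, was -1.89 over the 9 genes, and -0.0035 over all tested genes. Fewer T lineage cells in the PDR pool and less RNA of these genes per cell cannot be told apart in pooled cells.

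**Figure D1:**
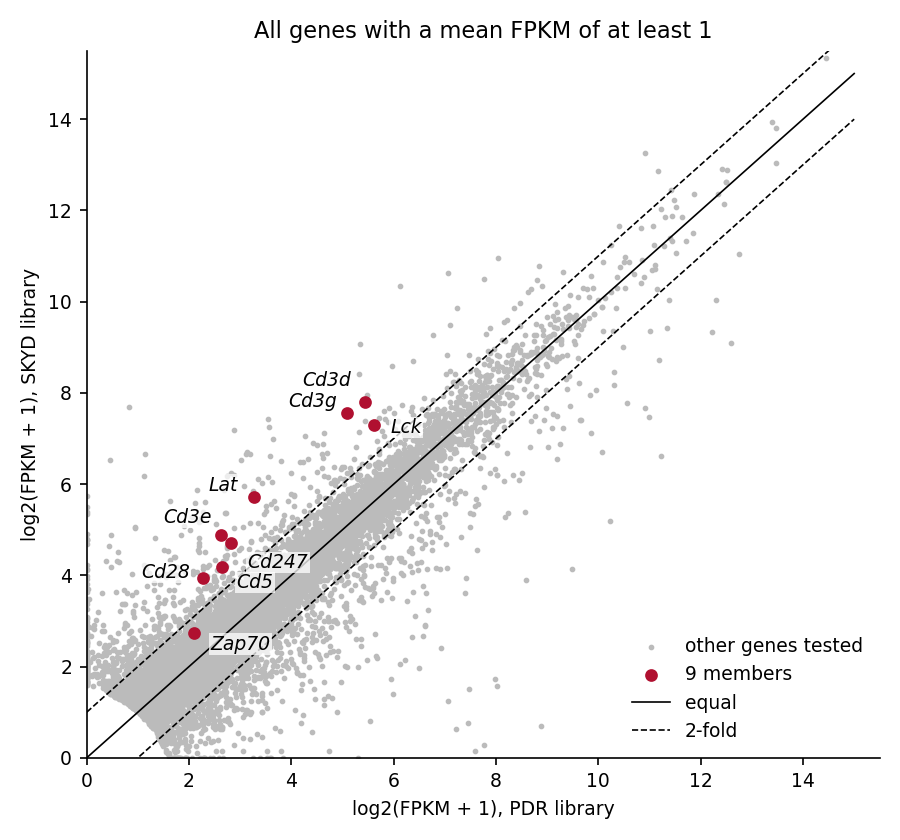
Each point is a gene whose mean FPKM was 1 or more, at its log2(FPKM + 1) in PDR (x axis) and SKYD (y axis). The 9 named genes are in red, and 8 of them lie above the upper dashed line, which marks a 2-fold difference, while Zap70 lies below it.

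The CD3 delta chain gene Cd3d (ENSMUSG00000032094) had an FPKM of 42.3 from 1803 reads in PDR and of 221 from 10010 reads in SKYD. Its FPKM was 5.22-fold higher in SKYD, with a 95% interval of 4.96 to 5.49. Intervals of a fold are exact (Clopper-Pearson) limits on how the reads of a gene split between the libraries, and cover counting error only. Among genes with reads, ordered by FPKM, Cd3d was at place 1599 of 17738 in PDR and at place 371 of 20499 in SKYD.

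The gamma chain gene Cd3g (ENSMUSG00000002033) had an FPKM of 32.9 from 2526 reads in PDR and of 187 from 15290 reads in SKYD, a ratio of 5.69 (95% interval 5.45 to 5.94). The epsilon chain gene Cd3e (ENSMUSG00000032093), whose product pairs with both the delta and the gamma chain, had a much lower level by FPKM. It was 5.19 from 497 reads in PDR and 28.4 from 2895 reads in SKYD. The ratio of Cd3e, 5.47 (95% interval 4.98 to 6.03), overlapped those of Cd3d and Cd3g in its interval. Within a library, the FPKM of Cd3d was 8.15 times that of Cd3e in PDR and 7.77 times in SKYD, and that of Cd3g was 6.34 and 6.59 times. Relative to Cd3e, both proportions were alike within counting error, while the fold of Cd3g was 1.09 times that of Cd3d (95% interval 1.02 to 1.16), a comparison chosen after the data were seen.

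The zeta chain gene Cd247 (ENSMUSG00000005763) differed less than the other CD3 chains. Its FPKM was 6.06 from 758 reads in PDR and 25.1 from 3344 reads in SKYD, a ratio of 4.15 (95% interval 3.83 to 4.49). This interval lies below those of Cd3d, Cd3e and Cd3g. Relative to Cd3e, the FPKM of Cd247 was 1.17 in PDR and 0.884 in SKYD, so that the fold of Cd247 was 0.757 times that of Cd3e (95% interval 0.668 to 0.858, exact conditional odds ratio). Taken as 1 group, the 4 CD3 chain genes took 0.0242% of reads in PDR (95% exact binomial interval 0.0236 to 0.0248) and 0.124% in SKYD (0.123 to 0.125).

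**Figure D2:**
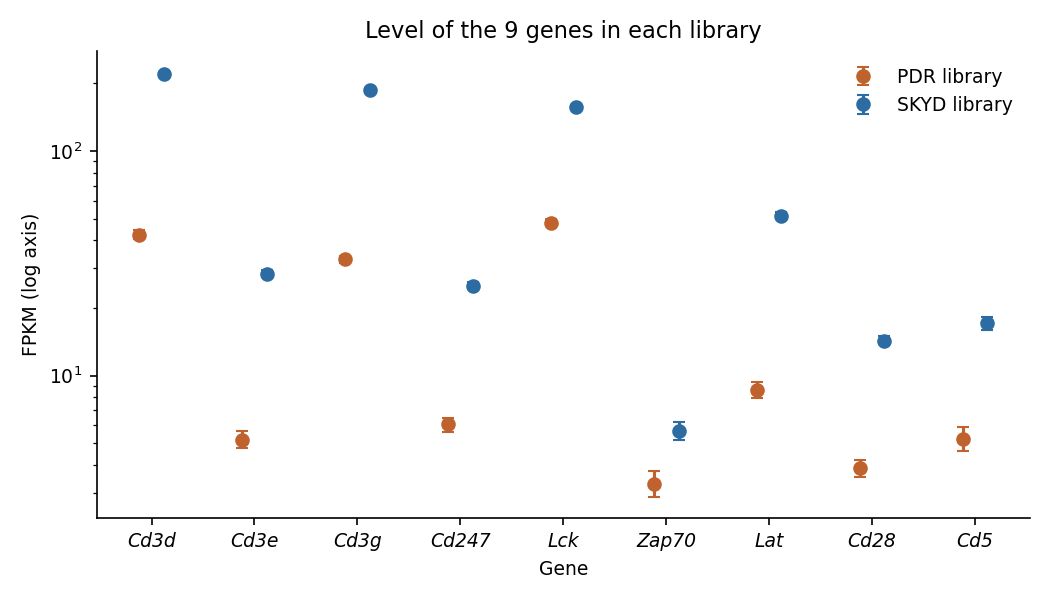
FPKM of the 9 genes (log axis) in PDR (orange) and SKYD (blue), 1 pooled library each. Bars are 95% Poisson intervals for counting error, often smaller than the point, and the closest pair of values is that of Zap70, 3.3 and 5.67.

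The genes Cd3g, Cd3d and Cd3e are neighbours on chromosome 9, within 40.1 kb of GRCm38. Cd3g (chr9:44969572-44980431) and Cd3d (chr9:44981786-44987339) lie head to head on opposite strands with their starts 1355 bases apart, and Cd3e (chr9:44998740-45009627) lies 11401 bases beyond the end of Cd3d, on the strand of Cd3g. Cd247 (chr1:165788681-165877277), the CD3 gene with the lower fold, is on chromosome 1. The RefSeq promoter table (GRCm38.p6) matched 8 of the 9 genes with 11 promoters, and had no entry for Cd28. The 250 bases before the RefSeq start of Cd3d, Cd3g and Cd3e are printed because these genes differed by overlapping folds, and those of Zap70 for comparison, as the gene with the lowest fold. The RefSeq start of Cd3e differs from the deposited one, so that 16 bases of its window lie inside the deposited gene. Each window runs 5′ to 3′ on the strand of its gene, and capitals mark any of the motifs described next.
Cd3d promoter (chr9:44981536-44981785, + strand): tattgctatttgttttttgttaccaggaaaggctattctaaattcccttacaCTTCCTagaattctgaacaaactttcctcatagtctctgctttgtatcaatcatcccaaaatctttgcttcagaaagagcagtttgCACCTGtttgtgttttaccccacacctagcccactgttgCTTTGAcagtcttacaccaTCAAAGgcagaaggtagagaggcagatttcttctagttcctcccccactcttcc
Cd3g promoter (chr9:44980432-44980681, - strand): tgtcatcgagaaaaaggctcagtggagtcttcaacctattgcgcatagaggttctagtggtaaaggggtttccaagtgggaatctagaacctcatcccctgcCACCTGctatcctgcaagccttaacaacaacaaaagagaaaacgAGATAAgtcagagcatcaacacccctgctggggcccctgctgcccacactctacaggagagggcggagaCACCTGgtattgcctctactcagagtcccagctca
Cd3e promoter (chr9:45009612-45009861, - strand): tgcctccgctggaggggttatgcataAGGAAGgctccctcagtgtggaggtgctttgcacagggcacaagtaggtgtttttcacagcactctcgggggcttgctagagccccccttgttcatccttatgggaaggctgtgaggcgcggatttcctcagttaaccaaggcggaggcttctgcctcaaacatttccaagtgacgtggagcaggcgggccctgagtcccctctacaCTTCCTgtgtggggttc
Zap70 promoter 1 (chr1:36761548-36761797, + strand): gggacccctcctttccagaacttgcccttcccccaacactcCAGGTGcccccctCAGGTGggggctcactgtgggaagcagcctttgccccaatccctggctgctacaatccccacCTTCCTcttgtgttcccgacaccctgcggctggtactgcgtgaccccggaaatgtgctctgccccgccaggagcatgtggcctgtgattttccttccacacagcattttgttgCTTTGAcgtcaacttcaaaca

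Short motifs known from T lineage promoters were searched on both strands of these windows. The letters AGGAAG, a core bound by ETS factors, were in 9 of the 11 promoters of the members and in 29.5% of the 32851 promoters of the table. CAGGTG, an E-box bound by E proteins, was in 7 of the 11 and in 17.2% of all. RUNX factors bind TGTGGT, which was in 2 of the 11 and in 14% of all. TCF factors bind CTTTGA, found in 2 of the 11 and in 13.8% of all. GATA factors bind letters such as AGATAA, which 1 of the 11 and 9.99% of all contained. The TATA box was searched as TATAAA and was in 0 of the 11 and in 12.4% of all. Cd3d had 1 match of AGGAAG, 1 of CAGGTG and 2 of CTTTGA, Cd3g had 2 of CAGGTG and 1 of AGATAA, and Cd3e had 2 of AGGAAG. No match overlapped another in the 4 promoters printed. The first promoter of Zap70 held the same 3 motifs as that of Cd3d, with 2 matches of CAGGTG, 1 of AGGAAG and 1 of CTTTGA. Of the 11 windows, the later ones of Lck and Zap70 lie wholly inside the deposited gene. Without these 3, left out after the data were seen, AGGAAG was in 7 of 8, CAGGTG in 5, CTTTGA in 2, TGTGGT and AGATAA in 1 each and TATAAA in 0. A match describes letters and shows no binding.

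The kinase genes differed less than the CD3 genes, and unequally. Lck (ENSMUSG00000000409), the kinase that phosphorylates the ITAMs, had the highest FPKM of the 9 genes in PDR. It was 47.9 from 3296 reads in PDR and 157 from 11480 reads in SKYD, a ratio of 3.27 (95% interval 3.15 to 3.4). In SKYD, the level of Lck was below those of Cd3d and Cd3g. Its FPKM was 9.24 times that of Cd3e in PDR and 5.52 times in SKYD.

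Zap70 (ENSMUSG00000026117), which docks on the phosphorylated ITAMs, had the lowest FPKM of the 9 genes in SKYD and the smallest ratio, and in PDR its interval overlapped that of Cd28. Its FPKM was 3.3 from 232 reads in PDR and 5.67 from 424 reads in SKYD. The ratio was 1.72, with a 95% interval of 1.46 to 2.02 that lies above equality and includes 2-fold. Relative to Cd3e, the FPKM of Zap70 was 0.637 in PDR and 0.2 in SKYD, and its fold was 0.314 times that of Cd3e (95% interval 0.26 to 0.38). Zap70 was therefore more abundant relative to the CD3 genes in PDR than in SKYD.

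The adaptor gene Lat (ENSMUSG00000030742) differed by the largest ratio of the 9. Its FPKM was 8.63 from 561 reads in PDR and 51.6 from 3568 reads in SKYD, a ratio of 5.98 (95% interval 5.47 to 6.55). After the data were seen, pairs of members were also compared directly, as the fold of one gene over that of the other. The fold of Lat was 1.05 times that of Cd3g (95% interval 0.952 to 1.16), 1.09 times that of Cd3e (0.956 to 1.25), 1.15 times that of Cd3d (1.03 to 1.27) and 1.83 times that of Lck (1.66 to 2.02). Lat lies on chromosome 7 (chr7:126363824-126369570).

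The co-stimulatory receptor gene Cd28 (ENSMUSG00000026012) had an FPKM of 3.86 from 555 reads in PDR and of 14.3 from 2195 reads in SKYD, a ratio of 3.72 (95% interval 3.38 to 4.09). Cd5 (ENSMUSG00000024669), the inhibitory receptor gene, had an FPKM of 5.23 from 254 reads in PDR and of 17.1 from 884 reads in SKYD, a ratio of 3.27 (95% interval 2.84 to 3.78). The fold of Cd28 was 1.14 times that of Lck (95% interval 1.03 to 1.26) and 1.14 times that of Cd5 (0.957 to 1.35). Together, the 9 genes took 0.0454% of reads in PDR (95% exact binomial interval 0.0445 to 0.0463) and 0.197% in SKYD (0.195 to 0.199).

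By ratio, the 9 genes formed an order with 2 gaps between intervals. Lat, Cd3g, Cd3e and Cd3d had ratios from 5.22 to 5.98, each overlapping its neighbour. Cd247, Cd28, Cd5 and Lck had ratios from 3.27 to 4.15, again each overlapping its neighbour, and Zap70 stood apart at 1.72. Overlap does not make folds equal, as Lat and Cd3g against Cd3d and Cd28 against Lck show. On the log2(FPKM + 1) scale, Lat, Cd3g, Cd3e and Cd3d were also the 4 members more than 4-fold higher in SKYD, as were 2.08% of the tested genes. This number depends on the pseudocount, since Cd247, at -1.89 here, had -2.03 and -2.05 with pseudocounts of 0.1 and 0.01 and was then the fifth member past 4-fold, a check added after the data were seen. Their differences, PDR minus SKYD, were -2.47 for Cd3g, -2.45 for Lat, -2.36 for Cd3d and -2.25 for Cd3e.

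**Figure D3:**
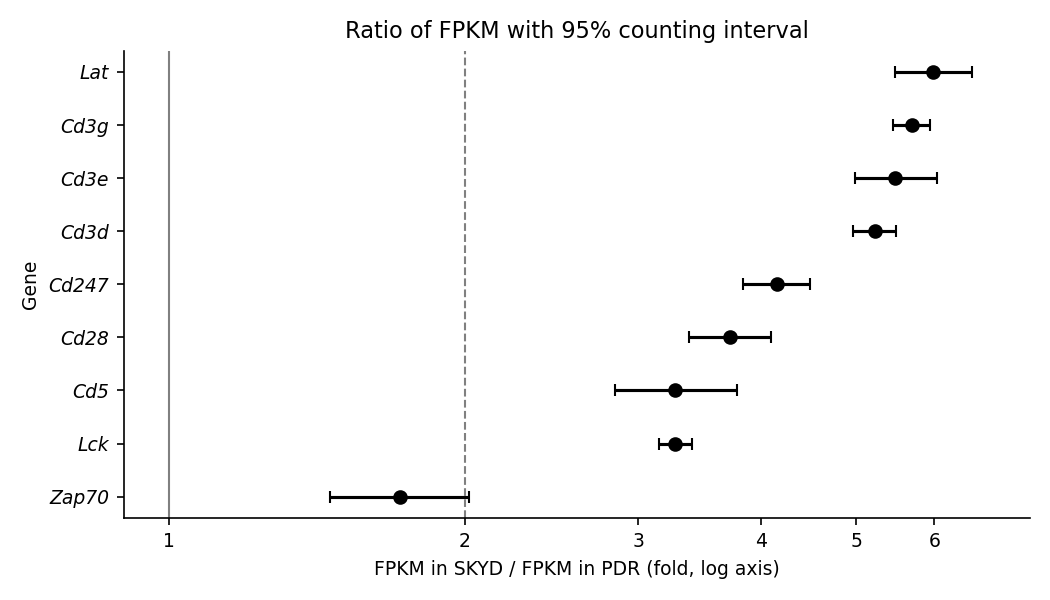
FPKM in SKYD divided by FPKM in PDR (x axis, log axis) for each of the 9 genes, with 95% Clopper-Pearson intervals for counting error. The solid line marks equality and the dashed line 2-fold, and the ratios run from 1.72 for Zap70 to 5.98 for Lat.

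The order of the levels also differed between the libraries. By FPKM, it was Lck, Cd3d, Cd3g, Lat, Cd247, Cd5, Cd3e, Cd28 and Zap70 in PDR, and Cd3d, Cd3g, Lck, Lat, Cd3e, Cd247, Cd5, Cd28 and Zap70 in SKYD. In PDR, the 95% Poisson intervals overlapped for 3 of the 8 pairs of neighbours, which were Cd247 and Cd5, Cd5 and Cd3e, and Cd28 and Zap70. The SKYD intervals overlapped for 0 of the 8. Lck was above Cd3d in PDR and below it in SKYD, beyond counting error in both.

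The level of Cd3e and Cd247 relative to the other genes depended on the length by which reads were divided. The deposited length of Cd3e, 4080 bases, covers all its annotated exons, including those of 3 transcripts with retained introns, whereas its principal protein-coding transcript has 1462 bases. For Cd3g the lengths are 3269 and 1023, for Cd247 5329 and 1632, and for Cd3d 1815 and 1617. Per length of the principal transcript, an alternative chosen after the data were seen, the SKYD level was 598 for Cd3g, 248 for Cd3d, 82 for Cd247 and 79.2 for Cd3e, and the level of Cd3d was 3.13 times that of Cd3e. Cd3g was then above Cd3d, while the 95% Poisson intervals of Cd247 (79.2 to 84.8) and Cd3e (76.4 to 82.2) overlapped. Relative to Cd3e, the level of Lck was then 4.44 in PDR and 2.65 in SKYD, and that of Zap70 was 0.304 and 0.0954. In PDR, the highest level per principal transcript was that of Cd3g, 105, against 64.2 for Lck, and the lowest were 3.62 for Cd5 and 4.4 for Zap70, with overlapping intervals. The ratio of a gene between the libraries does not depend on its length.

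**Figure D4:**
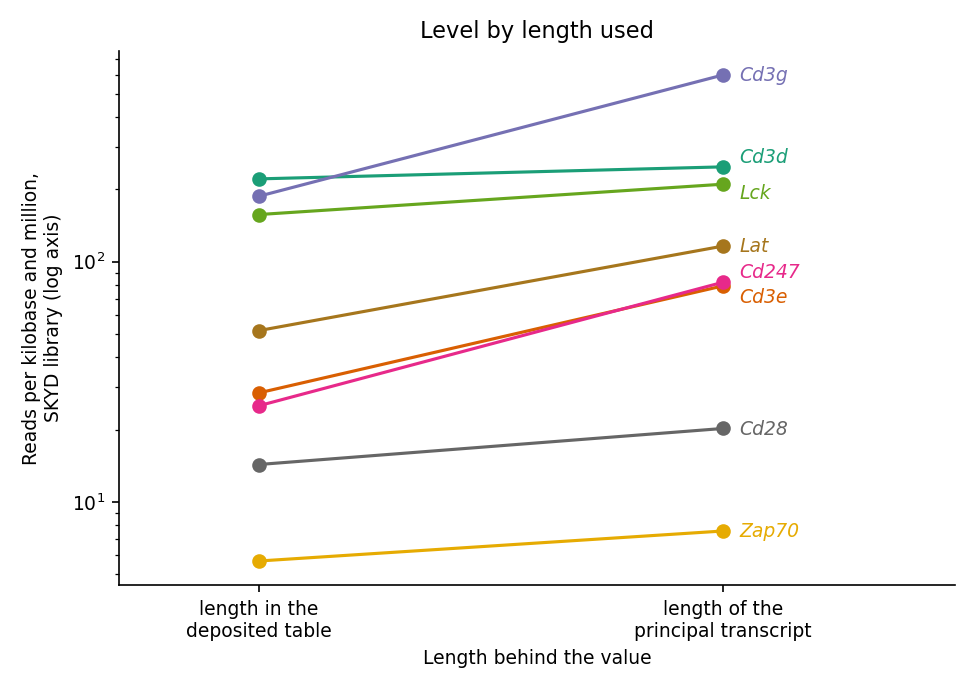
Level in the SKYD library (log axis) of 8 of the 9 genes, per kilobase of the deposited length (left) and of the principal protein-coding transcript (right), joined by a line for each gene. Cd3g moves from 187 to 598 and passes Cd3d, and Cd5 is left out because its deposited length, 2069 bases, is shorter than the transcript, 2989 bases.

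Reads of Cd247 and Cd3e may also be shared with overlapping genes. Of the exon bases of Cd247, 60.3% overlap exons of other genes, mostly those of Pou2f1 on the opposite strand, which had 141 reads in PDR and 62 in SKYD. The principal transcript of Cd247 shares 12.1% of its bases with Gm16565 on the same strand, with 0 and 81 reads. Of the principal transcript of Cd3e, 9.23% overlaps the antisense gene Gm48719, with 0 and 3 reads. Whether the counting used strand is not given in the sources used here, so reads in these stretches are uncertain. Cd3d, Cd3g, Zap70, Cd28 and Cd5 shared 0 exon bases with other genes of GENCODE M21, and Lck and Lat shared 0.854% and 2.71% with microRNA genes.

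The 5 genes nearest to Cd3e by the distance of their log2(FPKM + 1) values in the 2 libraries were Cd247 (0.26), Selp (0.27), Trbv13-3 (0.28), Gm19774 (0.29) and Gtf2h4 (0.30). Cd247 was thus the nearest of all tested genes. Selp had an FPKM of 5.75 in PDR and 24 in SKYD, and Trbv13-3, a T cell receptor variable segment, of 4.76 and 34.1.

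The constant genes of the T cell receptor, the chains with which the CD3 complex assembles, were higher in SKYD in 8 of 8 cases by more than 2-fold, with a median difference of -2.94. For this and each gene list below, the shares of all tested genes past 2-fold were 6.91% toward SKYD and 7.38% toward PDR. Trbc2 had the highest level of the constant genes, with an FPKM of 261 in PDR and 1995 in SKYD. Trbc1 had 133 and 1574, and Trac had 63.7 and 187. The fold of Trbc1 was 2.16 times that of Cd3e (95% interval 1.94 to 2.4), that of Trbc2 1.39 times (1.26 to 1.54) and that of Trac 0.538 times (0.48 to 0.603), so the CD3 genes lay between the beta and the alpha constant genes. Trbc1 and Trbc2 are near-identical copies, and the split of reads between them is uncertain. The largest difference was that of Tcrg-C2, a gamma constant gene, at -5.50, from 26 reads in PDR and 2267 in SKYD.

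Among 17 expressed co-receptors and co-stimulators, 5 were more than 2-fold higher in SKYD and 3 in PDR, with a median of 0.13. Cd8b1, the CD8 beta chain gene, had an FPKM of 39.7 in PDR and 535 in SKYD, and its fold was 2.46 times that of Cd3e (95% interval 2.2 to 2.75). Cd2, an adhesion receptor gene, had 156 in PDR and 126 in SKYD, so that its FPKM was 30 times that of Cd3e in PDR and 4.44 times in SKYD. Per length of the principal transcript, the level of Cd2 was 16.2 and 2.4 times that of Cd3e. On the log2(FPKM + 1) scale, Btla had the largest difference toward PDR, 1.34.

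Most other kinases, adaptors and effectors of T cell receptor signalling differed less than the 9 genes. Of 24 expressed genes of this kind, 5 were more than 2-fold higher in SKYD, 0 in PDR and 19 within 2-fold, with a median of -0.41. The most abundant, Coro1a, Grb2 and Lcp2, are used widely in leukocytes and had differences of 0.75, -0.15 and 0.04. Trat1, an adaptor that binds the CD3 zeta chain, had the largest difference, -4.09, from 101 reads in PDR and 3697 in SKYD. The median of 15 expressed inhibitors of the pathway was 0.15. Of the 15, 2 were more than 2-fold higher in SKYD and 1 in PDR, the latter near the 7.38% of all tested genes. The 2 were Sla2 at -2.41 and Sit1 at -1.76, and the 1 in PDR was Lax1 at 1.86. Ptpn6, the phosphatase gene with the highest level of the list, had 0.70.

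ITAM adaptors and kinases of other leukocytes form a mixed list. Of 13 genes, 0 were more than 2-fold higher in SKYD and 4 were in PDR, with a median of 0.71. The 4 are genes of the B lineage, Cd79b at 2.25 and, named after their values were seen, Blk at 2.18, Blnk at 2.07 and Cd79a at 1.70. Without them, an alternative chosen after the data were seen, the median of the other 9 was 0.25. Of these 9, Tyrobp at -0.58, Fcer1g at -0.45 and Hcst at -0.54 went toward SKYD and the other 6 toward PDR, most of all the adaptor gene Lat2 at 0.91. Hcst and Lat2 were named after their values were seen. Of 13 expressed T lineage transcription factors, 3 were more than 2-fold higher in SKYD and 0 in PDR, with a median of -0.62. Of these 3, Satb1 (FPKM 0.734 in PDR, 11.3 in SKYD) and Bcl11b (0.756, 3.46) passed the filter only through SKYD. Both were named after their values were seen. Tcf7 had -3.52, Id3 -0.52, Tcf3 0.35 and Runx3 0.47.

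**Figure D5:**
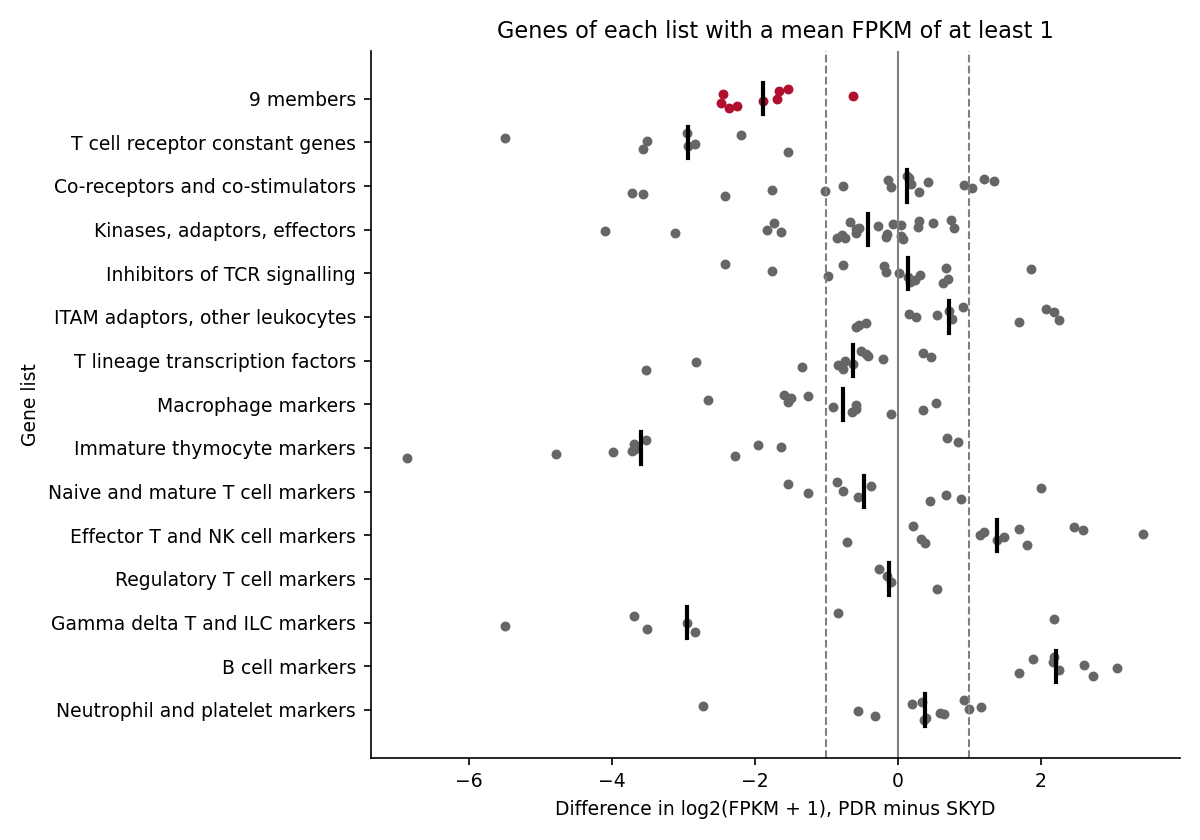
Difference in log2(FPKM + 1), PDR minus SKYD (x axis), of each expressed gene of the 9 members (red) and of 14 other lists (grey), with the median of each list as a black bar and 2-fold as dashed lines. The members have a median of -1.89, immature thymocyte markers of -3.60, B cell markers of 2.22, and several genes stand in more than 1 list.

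The libraries were labelled as macrophages, and the sort on F4/80 and CD11b would be expected to leave out T cells. Of 12 macrophage markers, 12 were expressed and 5 were more than 2-fold higher in SKYD, with a median of -0.77. They took 3.37% of reads in PDR and 6.28% in SKYD, with Lyz2 highest by FPKM in both libraries, and 0 of them had 0 reads. Cd14 went furthest toward SKYD, at -2.65, with an FPKM of 149 in PDR and 938 in SKYD. Fcgr1 went furthest toward PDR, at 0.54. The F4/80 gene Adgre1 had an FPKM of 87.3 in PDR and 93.3 in SKYD, and the CD11b gene Itgam of 8.84 and 14.4. In SKYD, the FPKM of Cd3d, Cd3g and Lck was thus above that of Adgre1, the gene of 1 sort marker, whereas in PDR it was below. Compared with Itgam, the gene of the other sort marker, the FPKM of Cd3d, Cd3g and Lck was higher in both libraries. In PDR it was 42.3, 32.9 and 47.9 against 8.84. Per length of the principal transcript, which leaves Adgre1 as it is, Cd3g was above Adgre1 in PDR too, at 105 against 87.3, and Lat joined Cd3d, Cd3g and Lck above it in SKYD, at 116 against 93.3. Macrophage markers were present in both libraries as labelled, and so were the T cell receptor and CD3 genes, which the label does not cover.

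Lists of T lineage markers differed between the libraries to unequal extents, and not all went with the 9 genes. Of 12 immature thymocyte markers, 10 were more than 2-fold higher in SKYD and 0 in PDR, with a median of -3.60, and they took 0.082% of reads in PDR and 0.236% in SKYD. Cd24a, which went toward PDR at 0.69, held 81.6% of the list's PDR reads, and without it, an alternative chosen after the data were seen, the shares were 0.0151% and 0.196%. By FPKM, Cd24a was highest in PDR and Cd8b1 in SKYD, and Dntt differed most, at -6.86. Rag1, Rag2 and Ptcra, named after their values were seen, had 0 reads in PDR, and 637, 2262 and 475 in SKYD. The PDR library thus held 5584 reads of the CD3 genes at 0 reads of these 3 genes. Of 10 naive and mature T cell markers, 2 were more than 2-fold higher in SKYD and 1 in PDR, with a median of -0.47 and 0.0918% and 0.106% of reads. Klf2, at -1.26, was highest by FPKM in both libraries, and without it, chosen in the same way, the order of the shares turned to 0.0768% and 0.0707%. The gene higher in PDR was Dapl1, with an FPKM of 18.1 in PDR and 3.77 in SKYD. Of 7 expressed gamma delta T and ILC markers, 5 were more than 2-fold higher in SKYD and 1 in PDR, with a median of -2.95. The list took 0.0103% of reads in PDR and 0.0292% in SKYD. In that list the gene toward PDR was Blk, also a B cell kinase, which held 86.2% of the list's PDR reads, and without it, chosen likewise, the shares were 0.00142% and 0.0275%. By FPKM, Blk was highest in PDR and Tcrg-C2 in SKYD. Of its 12 genes, 2 had 0 reads in PDR and 1 in SKYD. Of 4 expressed regulatory T cell markers, 0 passed 2-fold either way on the log2(FPKM + 1) scale, with a median of -0.12. Of these 4, 3 went toward SKYD, and Tnfrsf18 was highest by FPKM in both libraries. This list took 0.00687% and 0.00663% of reads, an order that turned when Foxp3 or Il2ra, named after the values were seen, was left out. Foxp3 had a mean FPKM of 0.45 and so was not among the 4. By the ratio of FPKM, Foxp3 was 7.16-fold higher in PDR (interval for counting error 3.78 to 15). It had 74 reads in PDR and 11 in SKYD. Il2ra, 1 of the 4, was 2.04-fold higher in PDR by that ratio (1.62 to 2.57). Ikzf2, also below the filter, had 77 reads in PDR and 107 in SKYD. What part any of these cells had in the difference of the CD3 genes was not tested.

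Among 13 expressed effector T and NK cell markers, 9 exceeded 2-fold toward PDR and 0 toward SKYD, and the median was 1.39. On the log2(FPKM + 1) scale, Gzmb differed most, at 3.43, whereas the NK receptor gene Klrd1, named after its value was seen, had -0.71. By the ratio of FPKM, Tbx21, named likewise, was 28.3-fold higher in PDR, against 11.9-fold for Gzmb. The list took 0.0873% of reads in PDR and 0.0303% in SKYD, Gzma was highest by FPKM in both libraries, and 0 of 15 had 0 reads. All 8 expressed B cell markers exceeded 2-fold toward PDR, with a median of 2.22. They took 0.388% of reads there and 0.0725% in SKYD, and 0 of 10 had 0 reads. By FPKM, Cd79b was highest in PDR and Cd79a in SKYD. Of 12 expressed neutrophil and platelet markers, 1 passed 2-fold in each direction, Ltf toward PDR at 1.17 and Pf4, a platelet gene, toward SKYD at -2.72, with a median of 0.38. A count of 1 in 12 is near the shares of all tested genes, 6.91% toward SKYD and 7.38% toward PDR. The list took 0.344% and 0.35% of reads, and the order turned without Pf4, to 0.328% and 0.248%, or without Mmp8, to 0.328% and 0.327%, both chosen after the data were seen. By FPKM, S100a9 was highest in both libraries, and 1 of 14 genes had 0 reads in both. The part of these cells in the levels of the 9 genes was not tested.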

How the data were processed

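RNA of sorted aortic macrophages was sequenced in 1 library of 5 pooled mice per group. The authors aligned the reads with TopHat2 2.0.9, counted them with HTSeq 0.6.1 and deposited FPKM values with the length of each gene. The submitters' processing notes name the build mm9, but the deposited positions are those of GRCm38, with the same start and end as in GENCODE M21 for 98.3% of 54409 shared genes and for 8 of the 9 members.

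FPKM multiplied by gene length was a whole multiple of the value of 1 read, within 0.01 reads, for all 17738 genes above 0 in the PDR library and all 20499 in the SKYD library, and this gave the reads. A count of 0 allows up to 3 reads, 1.30e-05% of the reads in PDR and 1.18e-05% in SKYD. Differences were taken on the log2(FPKM + 1) scale for genes whose mean FPKM was 1 or more, without a test. This scale understates the difference of genes with low FPKM. A gene with an FPKM below 1 in 1 library could pass the filter through the other library.

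The members and the 14 other lists were chosen with earlier results of these data known. Besides the members, the rule for named genes took from each list the 3 genes highest in mean FPKM and those with the largest difference in each direction, and the 5 genes nearest to Cd3e. Other pseudocounts, filters, scalings and thresholds were tried. The steps were tested on simulated data. Values were computed in Python 3.11.15 with scipy 1.17.1 and numpy 2.4.6.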

Additional observations from a re-analysis of the deposited data

How the results depend on the processing

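The count of 8 members more than 2-fold higher in SKYD was the same with pseudocounts of 0.1 and 0.01, without a filter on FPKM, with a mean FPKM of at least 5 (where Zap70 was left out), after rescaling to TPM, after centring on the median or a trimmed mean, and with protein-coding genes only. With a 4-fold threshold it was 4, and 5 with pseudocounts of 0.1 or 0.01, chosen after the data were seen. The median difference of the members, -1.89 (95% interval for counting error -1.99 to -1.79), was -2.03 and -2.05 with pseudocounts of 0.1 and 0.01 and -2.07 with a mean FPKM of at least 5. Among all genes, 719 were more than 2-fold higher in SKYD, and 373 were with a mean FPKM of at least 5, 473 with protein-coding genes only and 216 past 4-fold. In PDR the number was 767, and 464 with a mean FPKM of at least 5, 542 with protein-coding genes only and 194 past 4-fold. These settings test fewer genes or ask for a larger difference. Other settings raised the numbers, to 1010 in SKYD and 1057 in PDR with a pseudocount of 0.1, to 1048 and 1096 with 0.01 and to 948 and 1047 after rescaling to TPM.

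Each member kept its direction under 6 alternatives, 1 of which, with the library size set to the sum of recovered reads, was chosen after the data were seen. Zap70 ranged from -0.78 to -0.59 and stayed within 2-fold under each of them, and the other members stayed past 2-fold. No paired analysis was possible because each group had 1 library. Intervals cover the counting of reads and not the spread between mice, which pooled libraries cannot show.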
